A study of Mus musculus with 8 samples.

Results

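Egr1, Egr3, Arc, Nr4a1, Nr4a2, Nr4a3, Ier2, Ier3, Dusp1 and Btg2 are immediate early genes outside the AP-1 family. They were chosen by name, as the rows of the deposited expression table that carry these symbols, and all 10 were found among its 21878 gene symbols. Of the 10, 9 reached at least 1 FPKM (fragments scaled to transcript length and to the mapped fragments of the library) in at least 2 of the 8 libraries and were tested. Nr4a3 reached 1 FPKM in 0 of the 8 libraries and was not tested.

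Immediate early genes are transcribed within minutes of a stimulus from factors that are already in the cell, without new protein synthesis. In neurons, calcium entry through active synapses and channels drives them by way of kinases that act on CREB at cAMP response elements and on SRF at serum response elements. Growth factors, cytokines, stress and nerve injury can also induce them, in glia, fibroblasts and leukocytes as well as in neurons. Most of their transcripts are short-lived, so a level taken days after surgery reports transcription at that time and not the first burst.

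The libraries came from lumbar 4 and 5 dorsal root ganglia, which hold the cell bodies of the sensory neurons whose axons run in the sciatic nerve. All mice were C57BL/6 and had floxed (loxP-flanked) Myh9 and Myh10, the heavy chain genes of non-muscle myosin IIA and IIB. dKO mice also carried Advillin-Cre, which is driven by a gene (Avil) active in sensory neurons, so cells without Avil keep both myosin genes. The groups were dKO SNI, dKO sham, WT SNI and WT sham, with 2 libraries each, taken 3 days after axotomy of the sciatic nerve (called SNI in the sample names) or after sham surgery. WT stands for floxed mice without Cre, and the ages are not given in the labels. The labels do not say that a group's libraries are from different animals. The p-values then describe only how far these libraries spread, and that spread may be technical.

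Myh10 was at 5.31 and 4.12 FPKM in dKO SNI libraries against 13.8 and 10.4 FPKM in WT SNI, and at 12.2 and 14.4 FPKM in dKO sham against 18.1 and 23.5 FPKM in WT sham. Myh9 was at 24.6 and 24.4 FPKM in dKO SNI libraries against 30.8 and 29.7 FPKM in WT SNI, and at 10.9 and 12.1 FPKM in dKO sham against 27.2 and 31.6 FPKM in WT sham. The 13 sensory neuron markers were all present, with a summed level of 2793 to 8039 FPKM over the 8 libraries. They include Avil, at 44.1 and 34.5 FPKM in dKO SNI libraries against 143 and 112 FPKM in WT SNI. In dKO sham Avil was at 75.3 and 80.0 FPKM against 172 and 180 FPKM in WT sham. Counts of these markers between genotypes therefore include the gene whose promoter drives Cre. No marker of the cell types named below was at 0 in both libraries of a group. The 4 Y-linked genes measured summed to 37.4 to 38.7 FPKM in dKO SNI, 0 to 0.0109 FPKM in dKO sham, 0 to 0.00745 FPKM in WT SNI and 22.7 to 23.2 FPKM in WT sham. Each comparison of 2 groups therefore also compares libraries with and without Y-linked transcripts, and the part of this split in it cannot be told apart from surgery or genotype. Averaging the effect of SNI over genotypes, or that of dKO over surgeries, cancels it only if it is equal in both. The Y-linked genes themselves did not cancel. In each average 2 of the 4 were called higher by limma, with a median change of 0.27 over the 4. WT sham 2 stood apart in muscle transcripts, with Ckm, muscle creatine kinase, at 138 FPKM against at most 3.17 FPKM in the other libraries.

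Promoter sequence is shown for the members whose RefSeq promoters held a cAMP response element, the binding site of CREB, in full or in its 5-letter form. RefSeq promoters (GRCm38.p6, 250 bases before to 50 bases after the start) were at hand for 6 of the 10 genes. The full element TGACGTCA was in the promoters of Btg2, at -166 to -159, and of Dusp1, at -143 to -136, counted from the transcription start, and in 1.79% of 32851 promoters. The 5-letter form, TGACG or its complement CGTCA, was searched on both strands and was in 5 of the 6 and in 20.8% of all promoters. The promoters of Nr4a1, Nr4a2 and Nr4a3 each held 4 of them, and 0.231% of all promoters held 4 or more. Dusp1 held 3 and Btg2 2, of which 2 each overlap within the full element, and Ier3 held 0. The stretches run 5′ to 3′ in the gene's direction from 250 bases before the start up to the start or to the first annotated exon of the gene, with both forms of the element in capitals. They are chr1:134079156-134079405 (minus strand), chr17:26508520-26508722 (minus), chr15:101266596-101266845 (plus), chr2:57124004-57124253 (minus) and chr4:48045055-48045152 (plus). The stretch shown for Nr4a3 holds 3 of its 4 matches.
Btg2: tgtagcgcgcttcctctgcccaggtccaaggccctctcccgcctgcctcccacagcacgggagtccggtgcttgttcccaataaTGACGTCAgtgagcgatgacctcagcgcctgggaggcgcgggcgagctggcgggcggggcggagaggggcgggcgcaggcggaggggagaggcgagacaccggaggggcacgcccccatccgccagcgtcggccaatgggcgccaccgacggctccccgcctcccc
Dusp1: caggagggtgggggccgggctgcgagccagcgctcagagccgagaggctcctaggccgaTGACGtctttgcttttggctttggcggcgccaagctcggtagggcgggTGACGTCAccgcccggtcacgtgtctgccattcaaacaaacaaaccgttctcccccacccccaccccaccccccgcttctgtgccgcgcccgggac
Nr4a1: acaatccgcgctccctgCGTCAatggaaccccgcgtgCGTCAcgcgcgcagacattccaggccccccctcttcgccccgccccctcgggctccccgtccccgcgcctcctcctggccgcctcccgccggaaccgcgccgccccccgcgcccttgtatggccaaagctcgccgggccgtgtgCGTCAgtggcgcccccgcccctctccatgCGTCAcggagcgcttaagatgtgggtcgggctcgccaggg
Nr4a2: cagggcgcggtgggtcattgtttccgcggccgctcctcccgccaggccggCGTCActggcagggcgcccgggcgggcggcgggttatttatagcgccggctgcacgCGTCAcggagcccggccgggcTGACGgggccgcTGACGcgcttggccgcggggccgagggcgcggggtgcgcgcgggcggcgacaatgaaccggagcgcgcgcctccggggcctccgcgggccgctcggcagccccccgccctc
Nr4a3: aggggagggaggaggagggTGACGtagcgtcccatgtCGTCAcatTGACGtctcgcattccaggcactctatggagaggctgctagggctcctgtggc
A match describes these letters only and is no evidence of binding.

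**Figure D1:**
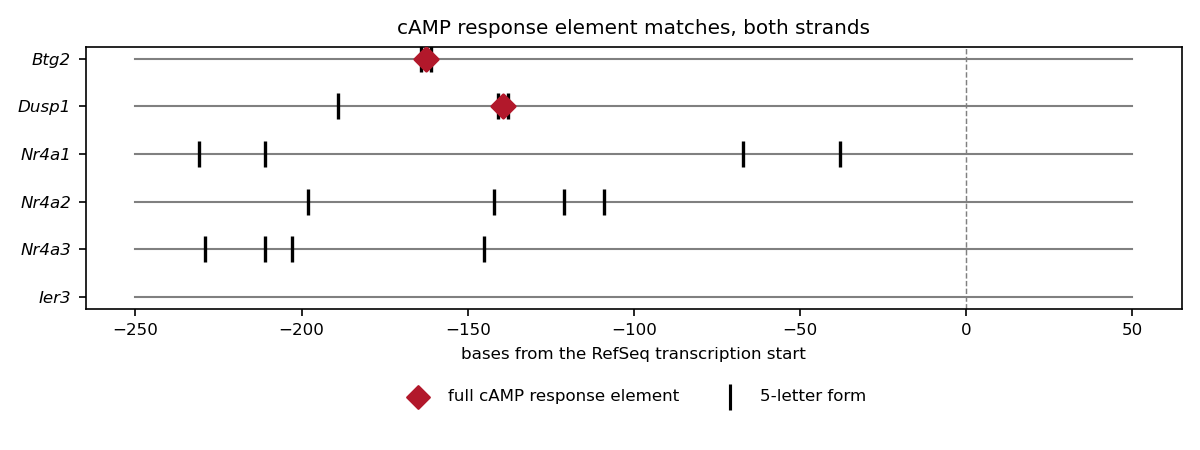
Matches to the full cAMP response element (red diamonds) and to its 5-letter form (black ticks) in 6 RefSeq promoters; the horizontal axis is the distance in bases from the transcription start. The full element appears in Btg2 and Dusp1, 4 matches of the 5-letter form in each Nr4a gene, and none in Ier3.

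The other motifs searched on both strands were the CArG box of SRF, the AP-1 site TGANTCA and the NBRE octamer bound by NR4A receptors. None of them was in the 6 promoters, while they were in 1.63%, 7.81% and 1.51% of all promoters. In the GENCODE M21 annotation of GRCm38 all 10 genes are protein-coding. Their median span was 5287 bases with a median of 3 exons in the transcript with the most, against 24718 bases and 9 exons for the 12484 protein-coding genes tested. The spans of 6 of the 10 were under 12000 bases, while those of Nr4a3 (41295 bases) and Dusp1 exceeded the median of the tested genes. Dusp1 has the longest span, 56539 bases on chromosome 17 (26505590 to 26562128, minus strand), and overlaps Ergic1 on the opposite strand. This span runs over all its annotated transcripts, whose exons cover 3311 bases. The RefSeq promoter (26508423 to 26508722) lies inside it, so the transcript from that start is far shorter. Whether Ergic1 overlaps that transcript was not examined. The labels do not state whether the libraries kept strand, so reads in the shared stretch of Dusp1 cannot be assigned with certainty. The other 9 genes overlap no annotated gene. Btg2 lies on chromosome 1 (134075170 to 134079120, minus), Ier2 on chromosome 8 (84661331 to 84662852, minus), Ier3 on chromosome 17 (35821684 to 35822923, plus), Arc on chromosome 15 (74669083 to 74672570, minus) and Nr4a1 on the same chromosome (101254269 to 101274795, plus). Egr3 lies on chromosome 14 (70077203 to 70082614, plus), Nr4a2 on chromosome 2 (57106830 to 57124003, minus) and Nr4a3 on chromosome 4 (48045153 to 48086447, plus).

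Levels are given per transcript length, in FPKM, and were low to moderate. The mean over the 8 libraries was 15.2 FPKM for Ier3, 12.6 for Dusp1, 8.26 for Btg2 and 7.28 for Ier2, all above the median gene tested (6.82 FPKM). It was 4.83 FPKM for Nr4a1, 3.79 for Egr1, 2.30 for Arc, 1.92 for Egr3, 1.43 for Nr4a2 and 0.122 for Nr4a3, all below it. Read totals are unknown, so the counting error of these low values is unknown too. Changes below are differences of log2(FPKM + 1) with their standard error, a scale that understates changes of low genes.

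In 6 of the 10 genes WT sham stood apart from all other libraries. Egr1, Egr3, Nr4a1, Ier2 and Btg2 were lower in both WT sham libraries than in each of the other 6, and Ier3 was higher in both. Arc, Nr4a2, Nr4a3 and Dusp1 overlapped between WT sham and the rest. How many of all genes set WT sham apart in this way was not counted, so 6 of the 10 is not shown to be unusual. Some marker sums were also lowest in both WT sham libraries. Fibroblast markers were at 190 to 279 FPKM there against at least 419 elsewhere, and satellite glia markers at 481 to 493 against 608. Erythrocyte markers were at 1299 to 1376 against 1998 FPKM or more, and macrophage markers at 43.2 to 63.3 against 71.3. Skeletal muscle markers were highest there, and the sums of the other cell types read overlapped. Their part in these genes was not tested. Egr3 and Btg2 spanned the widest range, with highest group means 4.96 and 4.71 times the lowest. Dusp1 spanned the narrowest, 1.30 times. Every comparison with WT sham rests on its 2 libraries.

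**Figure D2:**
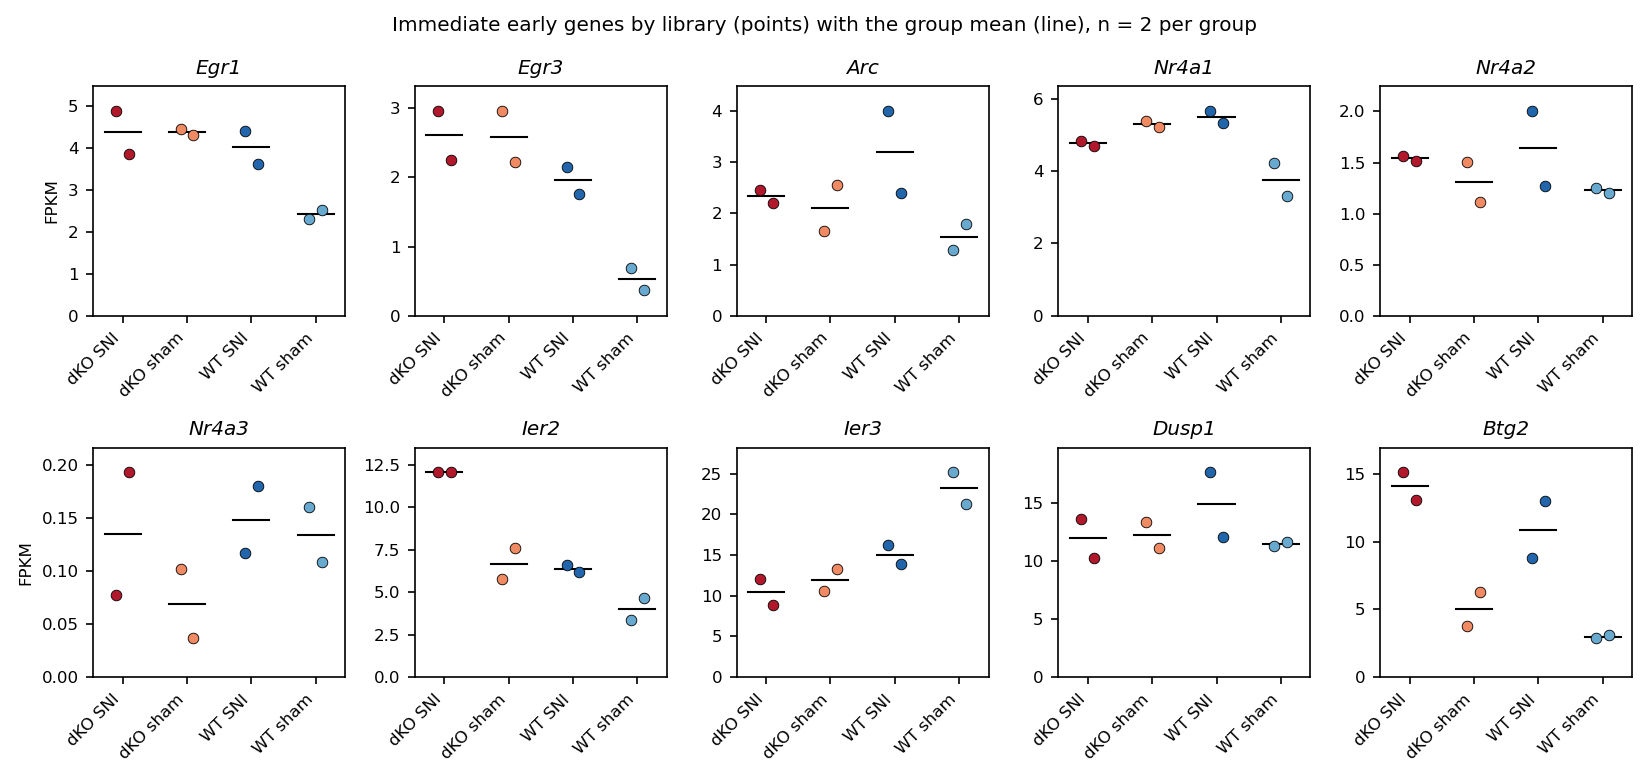
FPKM of the 10 genes in each library (points) with the group mean (line), n = 2 per group; each panel has its own vertical axis, starting at 0. WT sham is lowest for Egr1, Egr3, Nr4a1, Ier2 and Btg2 and highest for Ier3, while Btg2 follows surgery in both genotypes.

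The first comparison asked which of these genes differed 3 days after axotomy in WT ganglia. In WT SNI against WT sham, 6 of the 9 genes tested rose and 1 fell in limma (Benjamini-Hochberg adjusted p under 0.05 over 12884 genes). Over all genes tested, 13.6% rose and 9.38% fell. The median change of the 9 was 0.55 against 0.07 for all genes. In this comparison 59.3% of all calls were higher, against 45.9% after quantile normalization and 49.9% after median centring. A bulk level cannot tell more cells of a type from more RNA per cell.

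Btg2, an antiproliferative cofactor induced by growth factors and p53, had the largest change of the 9 on the log2(FPKM + 1) scale, while Egr3 had the largest ratio of means. It was at 8.80 and 13.0 FPKM in WT SNI against 2.87 and 3.12 FPKM in WT sham. Both injured libraries lay above both sham libraries, the means differed 3.64 times, and the change was 1.55 ± 0.22 (adjusted p = 0.00177, limma). The call held in all 12 alternative settings of this comparison, including each left-out library.

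Egr3 and Egr1 are zinc finger transcription factors of the EGR family, which bind a shared GC-rich element. Egr3 was at 2.16 and 1.76 FPKM in WT SNI against 0.686 and 0.367 FPKM in WT sham. The groups did not overlap, the means differed 3.72 times, and Egr3 rose by 0.96 ± 0.18 (adjusted p = 0.00562), though not with WT sham 2 left out. Egr1 was at 4.40 and 3.61 FPKM in WT SNI against 2.31 and 2.51 FPKM in WT sham. It also rose without overlap, by 0.55 ± 0.14 (adjusted p = 0.0247). The Egr1 call was lost with no filter on low values and after quantile normalization.

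Arc, a cytoskeleton-associated protein that drives removal of AMPA receptors at synapses, was at 4.01 and 2.39 FPKM in WT SNI against 1.29 and 1.80 FPKM in WT sham. It rose by 0.71 ± 0.22 (adjusted p = 0.0427). WT SNI 1 carried most of the difference. Nr4a1, an orphan nuclear receptor, was at 5.67 and 5.32 FPKM in WT SNI against 4.22 and 3.30 FPKM in WT sham, and rose by 0.45 ± 0.13 (adjusted p = 0.0376). The groups of both genes did not overlap. The Arc call was lost with no filter on low values, after quantile normalization and with only these groups in the fit. That of Nr4a1 was lost in the same settings and also after median centring.

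The IER genes went in opposite directions. Ier2, a nuclear regulator of transcription, was at 6.59 and 6.17 FPKM in WT SNI against 3.36 and 4.66 FPKM in WT sham, and rose by 0.57 ± 0.16 (adjusted p = 0.034). Ier3, a stress-inducible protein that modulates apoptosis and ERK signalling, was at 16.3 and 13.9 FPKM in WT SNI against 25.2 and 21.3 FPKM in WT sham. It fell by 0.59 on the log2 scale (SE 0.18, adjusted p = 0.0403), and neither gene's groups overlapped. Both calls were lost with no filter on low values, and that of Ier2 also after quantile normalization.

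Dusp1, a phosphatase that switches off MAP kinases, was at 17.7 and 12.1 FPKM in WT SNI against 11.3 and 11.7 FPKM in WT sham, a change of 0.33 ± 0.19 (adjusted p = 0.245). Nr4a2, a nuclear receptor related to Nr4a1, was at 2.01 and 1.27 FPKM in WT SNI against 1.25 and 1.20 FPKM in WT sham, a change of 0.23 ± 0.17 (adjusted p = 0.339). For both genes WT SNI 1 was high and WT SNI 2 lay close to WT sham. Nr4a3, the other NR4A receptor, was at 0.117 and 0.180 FPKM in WT SNI against 0.160 and 0.108 FPKM in WT sham, so the groups overlapped.

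With 1 of the 4 libraries left out, 2 to 3 of the 7 calls remained, and the calls over all genes went down as well, to between 1101 and 2517 genes against 2967 with all libraries. These were Btg2 and Egr3 without WT sham 1, Btg2 and Ier2 without WT sham 2, Btg2 and Egr3 without WT SNI 1, and Arc, Btg2 and Egr3 without WT SNI 2. Macrophage markers (10 genes) summed to 400 to 402 FPKM in WT SNI and 43.2 to 63.3 FPKM in WT sham, with 10 of 10 called higher. Fibroblast markers (6 genes) summed to 542 to 829 FPKM in WT SNI and 190 to 279 FPKM in WT sham, with 6 of 6 called higher. Neutrophil markers summed to 1332 to 2592 FPKM in WT SNI and 743 to 992 FPKM in WT sham, with 6 of 9 called higher. Sensory neuron markers summed to 5423 to 7142 FPKM in WT SNI and 7229 to 8039 FPKM in WT sham, with 5 of 13 called lower. The part of these cell types in the immediate early gene values was not tested.

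The second comparison asked the same of ganglia whose sensory neurons carried Cre. In dKO SNI against dKO sham 2 of the 9 genes rose, Btg2 and Ier2, and none fell (Nr4a3 was not tested). In the same limma comparison 23.8% of all genes rose and 24.6% fell, so only the share that rose, 2 of 9, is close to the background. The median change of the 9 was 0.01 against -0.00 for all genes.

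Btg2 was at 15.2 and 13.1 FPKM in dKO SNI libraries against 3.76 and 6.28 FPKM in dKO sham. It rose by 1.36 ± 0.22 (adjusted p = 0.00118), 2.81 times between the means. Ier2 was at 12.0 and 12.1 FPKM in dKO SNI libraries against 5.78 and 7.58 FPKM in dKO sham, and rose by 0.78 ± 0.16 (adjusted p = 0.00422), 1.80 times. Neither gene's groups overlapped, and both calls held in all 12 alternatives. Over both genotypes, every SNI library of Btg2 (8.80 to 15.2 FPKM) lay above every sham library (2.87 to 6.28 FPKM), the one gene of the 10 for which this was so. The share of all genes for which this held was not counted.

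Egr1 was at 4.88 and 3.86 FPKM in dKO SNI libraries against 4.44 and 4.31 FPKM in dKO sham. Its change was -0.01 ± 0.14, with a 95% interval of -0.33 to 0.32 (adjusted p = 0.967). Egr3 was at 2.96 and 2.25 FPKM in dKO SNI libraries against 2.97 and 2.22 FPKM in dKO sham. Its change was 0.01 ± 0.18, with an interval of -0.39 to 0.41 (adjusted p = 0.975). For both genes the dKO sham libraries were already near the level of dKO SNI, and the groups overlapped.

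Nr4a1 was at 4.84 and 4.69 FPKM in dKO SNI libraries against 5.39 and 5.23 FPKM in dKO sham, with both injured libraries below both sham libraries. The change was -0.13 ± 0.13, with an interval of -0.43 to 0.17 (adjusted p = 0.442). Arc was at 2.46 and 2.21 FPKM in dKO SNI libraries against 1.65 and 2.55 FPKM in dKO sham, a change of 0.12 ± 0.22 (adjusted p = 0.669). Ier3 was at 12.1 and 8.87 FPKM in dKO SNI libraries against 10.6 and 13.3 FPKM in dKO sham, a change of -0.18 ± 0.18 (adjusted p = 0.422). The groups of Arc and of Ier3 overlapped.

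Dusp1 was at 13.7 and 10.3 FPKM in dKO SNI libraries against 13.4 and 11.1 FPKM in dKO sham, a change of -0.03 ± 0.19 (adjusted p = 0.895). Nr4a2 was at 1.56 and 1.52 FPKM in dKO SNI libraries against 1.50 and 1.11 FPKM in dKO sham, a change of 0.15 ± 0.17 (adjusted p = 0.495). Nr4a3 was at 0.0775 and 0.194 FPKM in dKO SNI libraries against 0.102 and 0.0372 FPKM in dKO sham. The groups of Dusp1 and Nr4a3 overlapped, and those of Nr4a2 lay apart by a small gap.

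Neutrophil markers (9 genes) summed to 7164 to 7318 FPKM in dKO SNI and 724 to 1205 FPKM in dKO sham, with 9 of 9 called higher. Macrophage markers summed to 652 to 775 FPKM in dKO SNI and 71.3 to 103 FPKM in dKO sham, with 10 of 10 called higher. Fibroblast markers summed to 1033 to 1311 FPKM in dKO SNI and 419 to 526 FPKM in dKO sham, with 4 of 6 called higher. Sensory neuron markers summed to 2793 to 4094 FPKM in dKO SNI and 6460 to 7341 FPKM in dKO sham, with 11 of 13 called lower. Their part in the Btg2 and Ier2 values was not tested.

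**Figure D3:**
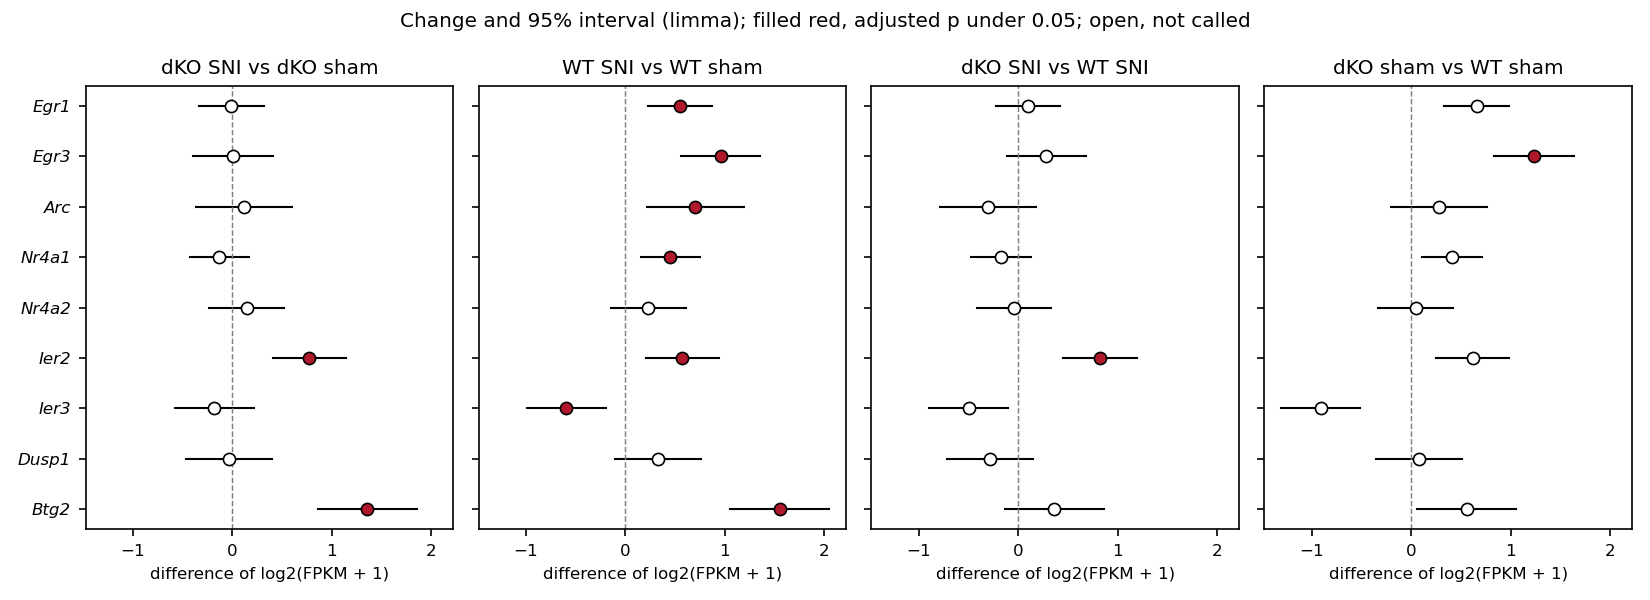
Change of each tested gene in log2(FPKM + 1) with its 95% interval in 4 comparisons; filled red points had a limma adjusted p under 0.05 and open points did not. WT SNI against WT sham has 7 filled points, dKO SNI against dKO sham 2 (Ier2 and Btg2), dKO SNI against WT SNI 1 (Ier2) and dKO sham against WT sham 1 (Egr3).

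The responses of the 2 genotypes were compared directly as the SNI effect in dKO minus that in WT. None of the 9 genes tested passed limma's adjusted threshold, and 0.0543% of all genes (7) did. At an unadjusted p under 0.05 there were 3 of the 9, and 1863 of all genes. The 3 were Egr3 at -0.95 ± 0.25 (unadjusted p = 0.00392, adjusted p = 0.236), Nr4a1 at -0.58 ± 0.19 (unadjusted p = 0.0122, adjusted p = 0.273) and Egr1 at -0.56 ± 0.20 (unadjusted p = 0.0219, adjusted p = 0.288). Arc, at -0.59 ± 0.30, had an adjusted p of 0.389. Btg2 and Ier2 differed by -0.20 ± 0.31 and 0.20 ± 0.23 (adjusted p = 0.792 and 0.694). A loss of the Egr or Nr4a1 response in dKO ganglia is therefore not shown. This contrast runs along the split in Y-linked transcripts, and the split and the difference of responses cannot be told apart.

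The genotypes were then compared after sham surgery. Of the 9 genes, Egr3 alone passed in dKO sham against WT sham and rose, and none fell. In that limma comparison 0.0931% of all genes rose and 0.0621% fell, 20 genes in all. Egr3 was at 2.97 and 2.22 FPKM in dKO sham against 0.686 and 0.367 FPKM in WT sham, 4.92 times between the means and 1.23 ± 0.18 on the log2 scale (adjusted p = 0.0378). The groups lay far apart. The Egr3 call was lost without WT sham 2, without dKO sham 1 and without dKO sham 2, and was kept without WT sham 1. It was also lost with no filter on low values, after quantile normalization and with only these groups in the fit.

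At an unadjusted p under 0.05 there were 6 of the 9 genes, against 1397 of all 12884. Ier3 was at 10.6 and 13.3 FPKM in dKO sham against 25.2 and 21.3 FPKM in WT sham, a change of -0.91 ± 0.18 (adjusted p = 0.106). Egr1 was at 4.44 and 4.31 FPKM in dKO sham against 2.31 and 2.51 FPKM in WT sham, a change of 0.66 ± 0.14 (adjusted p = 0.134). Neither gene's groups overlapped, and neither passed the adjusted threshold. Ier2 changed by 0.62 ± 0.16, Btg2 by 0.56 ± 0.22 and Nr4a1 by 0.41 ± 0.13 without passing it (adjusted p = 0.212, 0.409 and 0.329). Arc at 0.28 ± 0.22, Dusp1 at 0.08 ± 0.19 and Nr4a2 at 0.05 ± 0.17 had larger p-values (adjusted p = 0.648, 0.894 and 0.934). This comparison and the injury comparison in WT share the WT sham libraries, so a like sign in both is no separate evidence. Fibroblast markers summed to 419 to 526 FPKM in dKO sham and 190 to 279 FPKM in WT sham, with 2 of 6 called higher (Col3a1 and Col1a1), and their part in the Egr3 value was not tested.

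After axotomy, Ier2 alone of the 9 genes passed in dKO SNI against WT SNI, and it rose. In that limma comparison 10.7% of all genes rose and 13.4% fell, so the share that rose, 1 of 9, is close to the background. None of the 9 fell. Ier2 was at 12.0 and 12.1 FPKM in dKO SNI libraries against 6.59 and 6.17 FPKM in WT SNI, 1.89 times between the means and 0.82 ± 0.16 on the log2 scale (adjusted p = 0.0124). The groups lay apart, but the call was lost without WT SNI 1 and without dKO SNI 2. Without dKO SNI 1 there were 2 calls among the 9 genes. Ier3 was at 12.1 and 8.87 FPKM in dKO SNI libraries against 16.3 and 13.9 FPKM in WT SNI, a change of -0.50 ± 0.18 that did not pass (adjusted p = 0.0668).

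The remaining genes differed less between the injured groups. Btg2 at 0.36 ± 0.22, Egr3 at 0.28 ± 0.18, Egr1 at 0.10 ± 0.14 and Nr4a2 at -0.04 ± 0.17 had adjusted p-values of 0.247, 0.256, 0.634 and 0.874. Arc at -0.31 ± 0.22, Dusp1 at -0.28 ± 0.19 and Nr4a1 at -0.17 ± 0.13 had adjusted p-values of 0.309, 0.297 and 0.36. Neutrophil markers summed to 7164 to 7318 FPKM in dKO SNI and 1332 to 2592 FPKM in WT SNI, with 9 of 9 called higher. Macrophage markers summed to 652 to 775 FPKM in dKO SNI and 400 to 402 FPKM in WT SNI, with 6 of 10 called higher. Sensory neuron markers summed to 2793 to 4094 FPKM in dKO SNI and 5423 to 7142 FPKM in WT SNI, with 9 of 13 called lower. The part of these cell types in the Ier2 value was not tested.

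Averages over the other factor used all 8 libraries, and each side held libraries with and without Y-linked transcripts. The split cancels in them only if its effect is equal in both genotypes or both surgeries. Averaged over genotypes, 5 of the 9 genes rose after SNI and 1 fell, while 29.5% of all genes rose and 25.5% fell. Btg2 rose by 1.46 ± 0.16 (adjusted p = 8.78e-05) and Ier2 by 0.67 ± 0.12 (adjusted p = 0.00112), and both calls held in all 15 alternatives. Egr3 rose by 0.48 ± 0.13, Arc by 0.41 ± 0.15 and Egr1 by 0.27 ± 0.10 (adjusted p = 0.00943, 0.043 and 0.0464). Their changes were 0.96, 0.71 and 0.55 in WT but 0.01, 0.12 and -0.01 in dKO, so these averages rest mainly on the WT libraries. The difference between the genotypes did not pass for any of these genes. Ier3 fell by 0.39 on the log2 scale (SE 0.13, adjusted p = 0.026). Nr4a1 at 0.16 ± 0.09, Nr4a2 at 0.19 ± 0.12 and Dusp1 at 0.15 ± 0.14 did not pass (adjusted p = 0.173, 0.203 and 0.389). Of the called genes, Egr1 kept its call in 4 of 14 alternatives, Arc in 7 of 14, Ier3 in 10 of 15 and Egr3 in 13 of 14. With 1 library left out, the Egr1 call was kept only without WT SNI 2 or dKO SNI 2, and the Arc call only without WT sham 2, WT SNI 2 or dKO sham 2. The Ier3 call was lost without WT sham 1, WT SNI 2, dKO sham 2 or dKO SNI 2, and the Egr3 call was kept without each. In the same average 10 of 10 macrophage, 9 of 9 neutrophil and 6 of 6 fibroblast markers rose and 11 of 13 sensory neuron markers fell, and their part in these values was not tested.

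Averaged over surgeries, 3 of the 9 genes rose in dKO ganglia and 1 fell, while 11.8% of all genes rose and 10.4% fell. Egr3 rose by 0.76 ± 0.13 (adjusted p = 0.0116), and all 4 dKO libraries (2.22 to 2.97 FPKM) lay above all 4 WT libraries (0.367 to 2.16 FPKM). Ier3 fell by 0.70 (SE 0.13, adjusted p = 0.0131), and all 4 dKO libraries (8.87 to 13.3 FPKM) lay below all 4 WT libraries (13.9 to 25.2 FPKM). These were the 2 genes of the 10 whose genotypes did not overlap. The share of all genes without such overlap was not counted. Ier2 rose by 0.72 ± 0.12 (adjusted p = 0.0116) and Egr1 by 0.38 ± 0.10 (adjusted p = 0.0307). The genotype change of Egr1 was 0.66 after sham surgery and 0.10 after SNI, and that of Egr3 1.23 and 0.28. Both averages therefore rest mainly on the sham libraries. The calls of Egr3, Ier3 and Ier2 held in all alternatives run, while that of Egr1 held in 4 of 14 and was lost with any 1 of the 8 libraries left out. In the same average 9 of 9 neutrophil, 8 of 10 macrophage and 5 of 6 fibroblast markers rose and 8 of 13 sensory neuron markers fell, and their part in these values was not tested.

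Btg2 at 0.46 ± 0.16 did not pass for genotype (adjusted p = 0.0611) and passed without WT SNI 2, without dKO sham 1 and with the replicate number as a block. Nr4a1 at 0.12 ± 0.09, Nr4a2 at 0.00 ± 0.12, Arc at -0.01 ± 0.15 and Dusp1 at -0.10 ± 0.14 had adjusted p-values of 0.365, 0.991, 0.957 and 0.607.

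**Figure D4:**
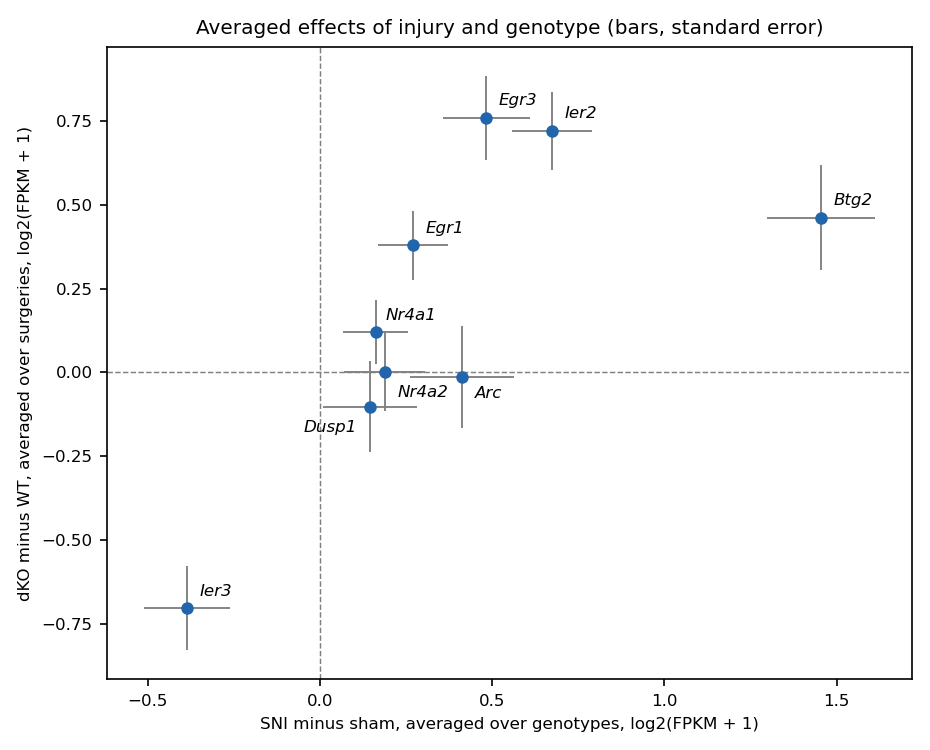
Averaged effect of SNI (horizontal) against averaged effect of dKO (vertical) in log2(FPKM + 1) for the 9 tested genes, with standard errors. Btg2 lies farthest right at 1.46, Egr3 and Ier2 highest at 0.76 and 0.72, and Ier3 alone is below 0 on both axes by more than its error.

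The order of the 4 group means differed between genes. For Egr3 it ran upward from WT sham through WT SNI and dKO sham to dKO SNI, and only the last pair of neighbours overlapped. Ier3 ran the other way round, with dKO SNI lowest, and dKO SNI and dKO sham overlapped. For Btg2 it ran WT sham, dKO sham, WT SNI and dKO SNI, with every pair of neighbours apart. Ier2 kept the order of Egr3, with WT SNI and dKO sham overlapping. Egr1 placed dKO sham highest, Nr4a1 and Arc placed WT SNI highest, and in Egr1 the 3 groups above WT sham overlapped.

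Over the 8 libraries, the 28 pairs of tested genes other than Ier3 had a median Pearson r of log2(FPKM + 1) of 0.54. None of them was negative, but Ier2 and Dusp1 were uncorrelated (r = 0.000175), and Dusp1 and Btg2 were at 0.147. Of the 8 pairs with Ier3, 1 was positive. Egr1 and Egr3 were most alike (r = 0.957), followed by Egr3 and Nr4a1 (0.836) and Ier2 and Btg2 (0.833). Egr3 and Ier3 were most opposed (r = -0.845). These points share the 4 groups and the libraries, so the values describe the pattern only. Among 7462 other genes with a mean of at least 5 FPKM, those most like Btg2 were Mknk2, Ralb and Rgs19 (r = 0.993, 0.991 and 0.989). Those most like Ier2 were Zfp219, Sfswap and Stfa2l1 (0.983, 0.981 and 0.975), and those most like Egr1 were Pxdn, Gtf3c6 and Lama4 (0.953, 0.950 and 0.941). Egr3 had Gtf3c6, Pxdn and Lactb (0.965, 0.950 and 0.947), Arc had Nek6, Arhgap22 and Rnf185 (0.965, 0.944 and 0.936), and Nr4a1 had Brd7, Lamc1 and Col4a1 (0.946, 0.927 and 0.920). Ier3 had Clvs1, Lrrc41 and Stk25 (0.942, 0.930 and 0.919), Dusp1 had Hacd2, Gp1bb and Slc3a2 (0.924, 0.915 and 0.910), and Nr4a2 had Arhgap23, Ice1 and Rbm28 (0.893, 0.879 and 0.861).

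Related genes were read from lists for comparison. The median change in dKO SNI against dKO sham was 0.24 in the AP-1 family, 0.46 in other immediate early genes, -0.49 in activity-regulated effectors, -0.30 in feedback inhibitors and -0.05 in upstream kinases and factors, beside -0.00 over all genes. In WT SNI against WT sham it was 0.98, 0.54, -0.26, 0.16 and 0.06 in the same order, beside 0.07 over all genes. The counts in these lists stand beside 23.8% of all genes higher and 24.6% lower in dKO SNI against dKO sham, and 13.6% higher and 9.38% lower in WT SNI against WT sham. Of the AP-1 family, 3 of 7 tested rose in dKO SNI against dKO sham and 4 of 7 rose in WT SNI against WT sham, and none fell. Atf3, a stress-induced factor of the ATF family, was at 163 and 148 FPKM in dKO SNI libraries against 10.0 and 9.07 FPKM in dKO sham, and at 178 and 147 FPKM in WT SNI against 2.71 and 7.26 FPKM in WT sham. It rose in both genotypes, by 3.89 ± 0.30 and 4.88 ± 0.30. Fos, the classical activity marker, was at 3.43 and 2.31 FPKM in dKO SNI libraries against 2.01 and 2.78 FPKM in dKO sham, and at 3.08 and 2.83 FPKM in WT SNI against 1.39 and 2.71 FPKM in WT sham, and was not called.

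Of 28 other immediate early genes tested, 12 rose and 2 fell in dKO SNI against dKO sham, and 14 rose and 1 fell in WT SNI against WT sham (over all genes 23.8% and 24.6% in dKO, 13.6% and 9.38% in WT). Klf6, a zinc finger factor, rose by 0.99 ± 0.12 in dKO and 1.40 ± 0.12 in WT, and Ier5, a relative of Ier2, by 1.30 ± 0.15 and 1.20 ± 0.15. Amigo3, an adhesion protein, fell by 2.08 (SE 0.25) in dKO. In dKO SNI against WT SNI 4 rose and 1 fell, beside 10.7% and 13.4% of all genes, led by Klf2, a zinc finger factor, which rose by 1.13 ± 0.22 (adjusted p = 0.0124). None of the 28 passed in dKO sham against WT sham, where 0 of the 7 AP-1 genes passed either.

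Activity-regulated effectors, products through which active neurons adjust their synapses and signalling, were also read. Of 13 tested, 3 rose and 8 fell in dKO SNI against dKO sham, and 2 rose and 4 fell in WT SNI against WT sham. Over all genes 23.8% rose and 24.6% fell in dKO, and 13.6% rose and 9.38% fell in WT, so the share of effectors that rose was near the background. Nptx1, a secreted protein that clusters AMPA receptors, fell by 2.84 (SE 0.25) in dKO and by 1.58 (SE 0.25) in WT. Rasgrp1, a Ras activator, fell by 2.19 and by 1.50 (SE 0.24 each). Of the 13 sensory neuron markers 11 and 5 fell in the same comparisons, and their part in this list was not tested.

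The counts of the lists that follow stand beside the same shares of all genes, 23.8% higher and 24.6% lower in dKO SNI against dKO sham and 13.6% higher and 9.38% lower in WT SNI against WT sham. Of 15 feedback inhibitors, 4 rose and 6 fell in dKO SNI against dKO sham, and 1 rose and 3 fell in WT SNI against WT sham. Dusp5, an ERK phosphatase related to Dusp1, was at 2.75 and 2.26 FPKM in dKO SNI libraries against 11.9 and 10.3 FPKM in dKO sham, and at 5.77 and 5.88 FPKM in WT SNI against 10.8 and 11.2 FPKM in WT sham. It fell in both, by 1.78 and 0.82 (SE 0.13 each). Of 23 upstream kinases and factors, 6 rose and 4 fell in dKO SNI against dKO sham and 6 rose and 3 fell in WT SNI against WT sham, and the dKO counts are near the background. Rps6ka1, a kinase downstream of ERK, rose by 1.36 and 0.87 (SE 0.12 each). Of 11 cytoskeletal targets of MRTF and SRF, which respond to actin dynamics, 3 rose and 1 fell in each of dKO SNI against dKO sham, WT SNI against WT sham and dKO SNI against WT SNI (10.7% and 13.4% of all genes in the last). Flna, the actin crosslinker filamin A, rose by 1.53, 1.08 and 0.69 in them (SE 0.13 each). Of 13 heat shock genes, 1 rose and 5 fell in dKO SNI against dKO sham and 1 rose and 1 fell in WT SNI against WT sham.

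**Figure D5:**
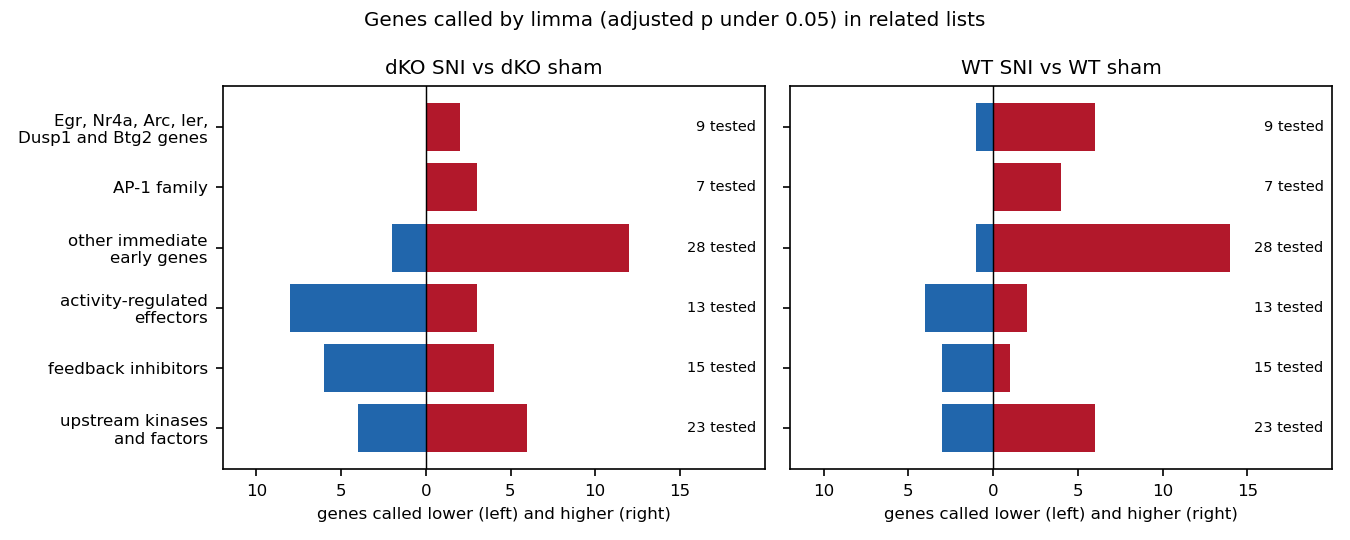
Number of genes called higher (red, right) and lower (blue, left) by limma at an adjusted p under 0.05 in each list, with the number tested, for dKO SNI against dKO sham and WT SNI against WT sham. The genes described here had 2 called higher in dKO and 6 called higher with 1 lower in WT; the activity-regulated effectors had 8 and 4 called lower.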

How the data were processed

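RNA sequencing libraries of 8 mouse dorsal root ganglion samples were analysed from 1 table of FPKM values that the authors deposited, with 21878 gene symbols and 1 column per library. Per the submitters' processing notes, the tools were HISAT2 2.0.4, StringTie 1.3.0 and edgeR (version not given). The notes list GRCm38.p4 and mm10 as builds but do not say what each served for. Libraries were paired-end TruSeq, made from column-purified total RNA, per the labels' protocols. The sources used here do not give the strand setting or the annotation. FPKM divides by transcript length and library total, so a few very abundant transcripts lower all others. Totals of FPKM were 278310 to 339920 per library, 11696 to 12478 genes reached 1 FPKM, and read depth is unknown.

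Columns were matched to samples by the names in the sample descriptions. Genes that reached 1 FPKM in 2 or more libraries (12884) were tested as log2(FPKM + 1) with limma 3.58.1 in R 4.3.3, fitting 1 mean per group to the 8 libraries together, with 4 residual degrees of freedom, a mean-variance trend, two-sided tests and Benjamini-Hochberg adjustment at 0.05. The fit was tested on simulated data. Only genes above the level of Egr3, Arc and Nr4a2 were changed in it, by more than most changes called here. It therefore does not cover such low genes or small changes. Replicate libraries correlated at 0.984 to 0.989. Left-out libraries leave a group with 1 library, which is then assumed to vary like the others.

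The members and lists were chosen with earlier results of these data known. Named were the 10 members in every library, of each other list at most the 3 genes with the smallest p per comparison, and the 3 genes most like each tested member among those with a mean of at least 5 FPKM. Fos, the marker genes Ckm, Col1a1 and Col3a1, and the targeted genes were named outside that rule, Fos after its values were seen. Alternatives were a pseudocount of 0.1, no filter, a mean of at least 5 FPKM, median centring, quantile normalization, robust moderation, the replicate number as a block, only the groups compared, and each library left out. Promoters came from RefSeq (GRCm38.p6) and gene positions from GENCODE M21 (GRCm38).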

Additional observations from a re-analysis of the deposited data

Results flagged for a closer look

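For Nr4a1 the order of the SNI and sham libraries differed between the genotypes. Both dKO SNI libraries (4.84 and 4.69 FPKM) lay below both dKO sham libraries (5.39 and 5.23 FPKM), while both WT SNI libraries (5.67 and 5.32 FPKM) lay above both WT sham libraries (4.22 and 3.30 FPKM). Read the other way, dKO lay below WT after SNI and above WT after sham surgery. The change within dKO did not pass by itself (-0.13 ± 0.13, adjusted p = 0.442, limma). The test of the difference gave -0.584 on the log2 scale (SE 0.19) and did not pass (adjusted p = 0.273, limma). With 2 libraries per group no single library could be tested as standing apart.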

How the results depend on the processing

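In WT SNI against WT sham 7 genes were called, against 6 after median centring and 5 with only the groups compared. There were 2 with no filter, 3 with a mean of at least 5 FPKM (which removes Egr1, Egr3, Arc, Nr4a1 and Nr4a2 from the test), 3 after quantile normalization and 2 to 3 with 1 library left out. dKO SNI against dKO sham gave 2 in every alternative, Btg2 and Ier2. For dKO sham against WT sham the 1 call became 0 with no filter, with the higher mean, after quantile normalization and with only the groups compared, and 0 to 1 with 1 library left out. For dKO SNI against WT SNI the 1 call became 0 to 2 with 1 library left out. The averaged SNI effect had 6 calls, and 3 with no filter, with the higher mean and after quantile normalization, and 3 to 5 with 1 library left out. The averaged dKO effect had 4 calls, 2 with the higher mean and 3 to 4 with 1 library left out. The difference of responses gave 0 in every alternative.

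With the replicate number as a block, calls were 7, 2, 1, 1 and 0 in WT SNI against WT sham, dKO SNI against dKO sham, dKO sham against WT sham, dKO SNI against WT SNI and the difference, and 5 and 5 in the averaged SNI and dKO effects. Deviations of same-numbered libraries correlated at -0.188 to 0.254. With 2 libraries per group this does not show that the numbers pair the libraries, and it cannot exclude it.

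Of 802 single-gene values under an alternative, 691 kept their direction and side of the threshold, 72 lost their call, 4 gained one and 35 reversed. Reversed values were small. In dKO SNI against dKO sham they were Egr1 0.00958 after median centring, and Egr3 -0.12, Arc -0.0280, Nr4a2 -0.0218 and Dusp1 0.0519 after quantile normalization. Nr4a2 was -0.0636 in dKO sham against WT sham after quantile normalization. In the averaged dKO effect Arc was 0.0077 with a pseudocount of 0.1, and Nr4a2 -0.00892 after median centring and -0.10 after quantile normalization. With 1 library left out, changes in dKO SNI against dKO sham ran from -0.0913 to 0.33 for Arc, -0.22 to 0.15 for Dusp1, -0.15 to 0.13 for Egr1, -0.14 to 0.16 for Egr3 and -0.38 to 0.0212 for Ier3. In the averaged dKO effect they ran from -0.15 to 0.13 for Arc, -0.23 to 0.0258 for Dusp1 and -0.10 to 0.10 for Nr4a2. The difference of responses ran from -0.50 to 0.11 for Btg2 and -0.29 to 0.12 for Nr4a2. dKO sham against WT sham ran from -0.0443 to 0.20 for Dusp1 and -0.0774 to 0.17 for Nr4a2, and dKO SNI against WT SNI from -0.0386 to 0.24 for Egr1 and -0.24 to 0.16 for Nr4a2. The cause was not tested. Levels near 1 FPKM (Egr3, Arc, Nr4a2) carry a counting error that cannot be given without read totals.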
